A study of Mus musculus with 40 samples.

Results

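The step studied here was the passage from the all-lymphoid progenitor (ALP) to the B-cell-biased lymphoid progenitor (BLP) in the bone marrow of control mice. Both populations were sorted as lineage-negative, Sca-1+, c-Kit+, Flt3-high, IL-7Ra+ and B220- cells, and they were separated by 1 surface protein, Ly6D, which is absent from the ALP gate and present on the BLP gate. The comparison used 10 of the 40 RNA-seq libraries of the series, 5 ALP and 5 BLP libraries, with 1 library of each kind from each of 5 mice. Per the sample labels, 100 sorted cells went into each library, which was prepared with the Smart-seq2 full-length method, which uses no molecular identifiers; the design text of the series gives another cell number for these populations. The 5 control mice were of the mixed strain C57BL6/129Ola, carried the genotype Mbd3_Flox/Flox, the control genotype of the labels, and were 46 to 51 days old. Where a result was set beside mice with deleted Mbd3 alleles, those were the 5 Mbd3_Del/Del mice of the series, of the same strain and 46 to 51 days old, again with 1 ALP and 1 BLP library each. The labels name no driver of the deletion. HSC (hematopoietic stem cell) and LMPP (lymphoid-primed multipotent progenitor) libraries of the same control mice gave the levels earlier in the lineage.

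B cell development starts in progenitors that still have T, NK and dendritic cell options. The factors E2A (Tcf3) and Ebf1 switch on the genes of the pre-B cell receptor, which is built from the Ig mu heavy chain, the surrogate light chain proteins (Vpreb1, Vpreb2 and Igll1) and the signalling pair Cd79a and Cd79b, and Pax5 then fixes the B fate. The recombinase proteins Rag1 and Rag2 cut the immunoglobulin genes so that their V, D and J segments can be joined. Cells that express Ly6D within the lymphoid progenitor pool are known as the ones in which this program becomes visible.

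Short stretches upstream of gene starts are given for 4 genes that the results turn on, each with a match to a motif named below. Ebf1, Pou2af1, Dlg2 and Ifi209, also higher in BLPs, had no match and are not printed. Chchd10 and Vpreb3 are neighbours on chromosome 10 that changed together, Cd79a is a signalling chain of the receptor, and Rag1 is the recombinase subunit that changed. They are RefSeq promoter sequences (build GRCm38.p6), restricted to bases before the RefSeq start that lie in no GENCODE exon. The capitals mark matches on either strand to the E boxes CAGCTG and CAGGTG, which E2A proteins bind, and to the octamer ATGCAAAT, which Oct factors bind with the coactivator Pou2af1. The octamer was added after the sequences had been seen.
Chchd10, chr10:75932880-75933129, plus strand: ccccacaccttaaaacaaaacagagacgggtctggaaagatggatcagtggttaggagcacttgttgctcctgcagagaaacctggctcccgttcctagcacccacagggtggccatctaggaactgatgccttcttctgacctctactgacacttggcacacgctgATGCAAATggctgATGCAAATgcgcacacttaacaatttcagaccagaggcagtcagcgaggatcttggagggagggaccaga
Vpreb3, chr10:75948050-75948299, plus strand: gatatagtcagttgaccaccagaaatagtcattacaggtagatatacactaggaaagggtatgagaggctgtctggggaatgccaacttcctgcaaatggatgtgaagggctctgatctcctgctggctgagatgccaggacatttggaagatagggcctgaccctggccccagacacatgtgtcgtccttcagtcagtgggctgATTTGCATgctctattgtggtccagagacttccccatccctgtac
Cd79a, chr7:24897247-24897380, plus strand: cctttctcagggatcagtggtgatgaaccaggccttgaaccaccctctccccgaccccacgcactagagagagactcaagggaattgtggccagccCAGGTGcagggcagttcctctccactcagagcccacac
Rag1, chr2:101649533-101649782, minus strand: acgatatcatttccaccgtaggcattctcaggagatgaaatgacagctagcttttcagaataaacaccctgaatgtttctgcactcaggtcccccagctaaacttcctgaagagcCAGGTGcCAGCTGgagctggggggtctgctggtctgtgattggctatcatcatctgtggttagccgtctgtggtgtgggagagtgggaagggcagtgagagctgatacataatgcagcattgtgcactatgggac

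The octamer stood at 2 places in the Chchd10 stretch, 83 and 70 bases before the start, and at 1 place in the Vpreb3 stretch, 45 bases before the start. Over the 250 bases upstream of 32851 RefSeq promoters, 1.6% held the octamer. Rag1 held CAGCTG and CAGGTG, 128 and 135 bases before its start, and Cd79a held CAGGTG 154 bases before its start, while CAGCTG stood in 13% and CAGGTG in 17.2% of all promoters. Among the 14 promoters of the 10 higher genes that the table lists, CAGCTG stood in 1, CAGGTG in 3 (Rag1, Cd79a and Atp1b3) and the octamer in 2. The full palindromic Ebf1 motif, present in 0.779% of promoters, was matched only in Sdc4 among those 14, and its core CCCNNGGG, which overlaps it and stood in 11.8% of promoters, was matched in Sdc4 alone as well. Of the 14 genes past the threshold below, 11 had an entry; Ly6d, Mzb1 and Blk had none. These matches are descriptions of letters, not of binding.

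Library depth ran from 3363182 to 9082610 counts over genes in ALPs and from 3593226 to 8368790 in BLPs, and 13133 to 15745 genes in ALPs and 12861 to 14332 in BLPs had at least 1 count. The share of counts in ribosomal protein genes was lower in the BLP library of all 5 mice, at 2.19% ± 0.406 in ALPs and 1.69% ± 0.201 in BLPs (SD, n = 5, exact two-sided sign-flip p = 0.0625, the smallest that 5 mice allow, and 0.312 after Benjamini-Hochberg adjustment over 5 library measures). The ALP library of mouse10372 stood apart. It had the fewest counts and the most detected genes, its log2 levels correlated with the other ALP libraries at r of 0.599 to 0.72 against 0.779 to 0.888 among the others, and 1450 of 10905 tested genes were over 2-fold above the 4 other ALP libraries and 1018 over 2-fold below them. The ALP library of mouse10380 had 1568 genes over 2-fold below the other 4 and 157 above. Among BLPs the most such genes were in mouse10372 (849 below, 312 above) and mouse10381 (761 below, 149 above). The noncoding gene model Gm26917 reached 3170 CPM (counts per 1000000 gene counts) in the ALP library of mouse10372 and 52.4 to 180 CPM in the other 4 ALP libraries. The sex given for 2 of the control mice went against the data. Mouse10372, labelled female, had 197 and 267 CPM of the Y-linked Ddx3y in its ALP and BLP libraries, and mouse10381, labelled male, had 297 and 291 CPM of Xist. The ALP and BLP libraries of each of these mice gave the same result, so the pairing within a mouse was kept. Whether the cells of these mice or the labels were exchanged was not tested.

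Of the 10905 genes with enough counts to test, 14 differed between BLPs and ALPs at a Benjamini-Hochberg adjusted p under 0.05 in edgeR's quasi-likelihood test with the mouse as a block. At an unadjusted p under 0.05 there were 446 genes (4.09%), fewer than the 545 that evenly spread p-values would give. At the adjusted threshold there were 13 genes higher in BLPs (0.119% of the genes tested) and 1 lower (0.00917%). In order of p the higher genes were Ly6d, Chchd10, Vpreb3, Mzb1, Cd79a, Ebf1, Dlg2, Ifi209, Atp1b3, Pou2af1, Blk, Sdc4 and Rag1, and the lower gene was Wfdc17. In GENCODE M21 (GRCm38) the genes span Ly6d at chr15:74762056-74763620, Cd79a at chr7:24897381-24902197, Ebf1 at chr11:44617317-45008091, Dlg2 at chr7:90476672-92449247, Ifi209 at chr1:173630917-173647928, Atp1b3 at chr9:96332655-96364442, Pou2af1 at chr9:51213708-51240080, Blk at chr14:63372836-63417037, Sdc4 at chr2:164424247-164443887, Rag1 at chr2:101638282-101649501 and Wfdc17 at chr11:83703991-83706268. Mbd3, the gene targeted in the series, was at 32.7, 38.9, 165, 16 and 55.6 CPM in the ALP and 72.6, 31.8, 41.6, 51.5 and 31.2 CPM in the BLP libraries of mouse10357, mouse10358, mouse10372, mouse10380 and mouse10381 (log2 0.03, adjusted p = 1). Of the 14 genes, 10 belong to the B lineage lists or the gate list described below. The 24 lists together held 355 of the 10905 tested genes, and they were chosen with earlier results of these data known. The membership is thus a description, not independent support. Every one of the 14 moved the same way in all 5 mice. They were chosen by a test on these same mice, so this too is a description. The count was 29 without the mouse block (26 higher and 3 lower, 0.238% and 0.0275%), and 13 of the 14 were among them, Sdc4 being the exception at an adjusted p of 0.49. DESeq2 called 104 higher (0.954%) and 55 lower (0.504%), all 14 included. Leaving out a mouse gave 5 genes without mouse10357, 6 without mouse10358, 15 without mouse10372 (11 of them among the 14), 8 without mouse10380 and 4 without mouse10381, and 4 without mouse10372 and mouse10381 together. Ly6d, Chchd10, Vpreb3 and Mzb1 passed in each of these 6 fits. Among the 5 fits that left out 1 mouse, Rag1, Blk, Ifi209 and Atp1b3 passed only without mouse10372, and Sdc4 only without mouse10380. Dlg2 was lost without mouse10357, mouse10358 or mouse10381. As these are pools of cells, more cells of a type and more RNA per cell cannot be told apart.

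**Figure D1:**
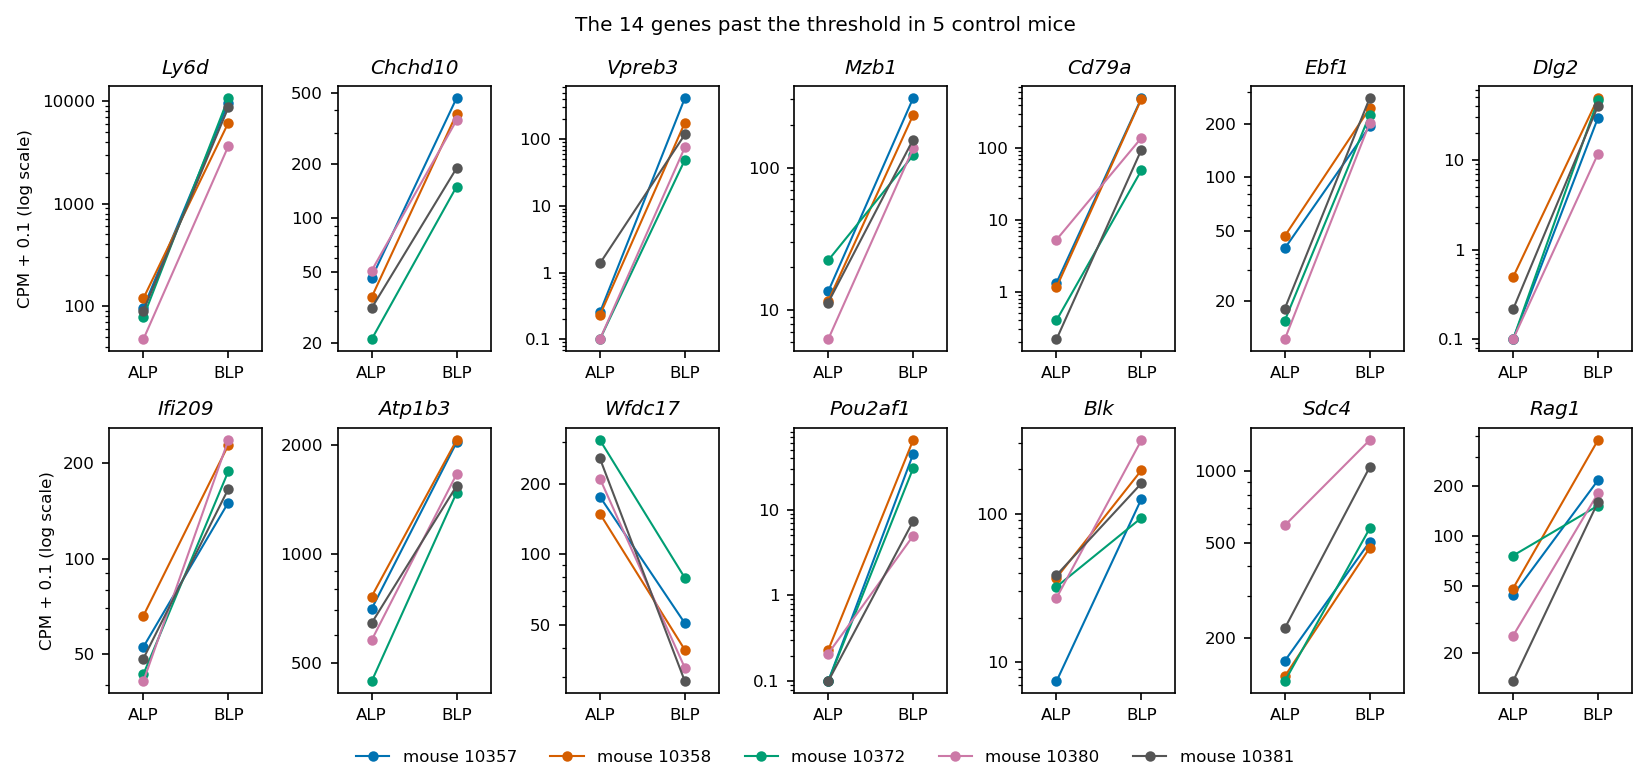
Levels of the 14 genes past the threshold, with the ALP and BLP library of each of 5 control mice joined by a line (y axis: CPM plus 0.1, log scale, scaled per gene). All lines rise in 13 genes and fall in Wfdc17, and the ALP and BLP ranges overlap only for Sdc4. The genes were chosen on these same libraries. Over all genes tested, the 5 BLP libraries all lay above the 5 ALP libraries in 0.752% and all below them in 0.715%.

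The gate gene came first. Ly6d, the surface protein used to separate the populations, was at 95.4, 118, 77.6, 47 and 89.3 CPM in the ALP libraries of mouse10357, mouse10358, mouse10372, mouse10380 and mouse10381, an order kept for all values below. The BLP libraries were at 9620, 6175, 10772, 3646 and 8713 CPM. The sort used this protein, so its log2 fold change of 6.55 ± 0.33 (SE) checks the labels and is not a finding. The other proteins of the gate were selected alike in both populations, and none of their genes passed the test. Il7r, the receptor chain for interleukin 7, was at 677, 466, 780, 334 and 714 CPM in ALPs and at 875, 866, 1555, 874 and 854 CPM in BLPs, and the groups did not overlap (log2 0.86 ± 0.24, adjusted p = 0.64). Flt3, the receptor for Flt3 ligand, was at a mean of 884 ± 426 CPM in ALPs and 503 ± 88 CPM in BLPs (SD, n = 5), lower in 5 of 5 mice (log2 -0.62, adjusted p = 1). Kit, the stem cell factor receptor, had a log2 difference of -0.74, Ly6a (Sca-1) of 1.42 and Ptprc, whose B220 isoform was in the gate, of 0.01, each with an adjusted p of 1. Lynx1, which lies 9010 bases from Ly6d on the same strand, was at 0 to 7.59 CPM in ALPs and 17 to 30.4 CPM in BLPs (log2 4.87 ± 1.18, adjusted p = 0.482); it was chosen after its values were seen, and whether reads running on from Ly6d contribute was not tested.

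The list of the pre-B cell receptor and its signalling held 3 of the 14 genes. There 19 of 22 genes could be tested, 3 were higher (Vpreb3, Cd79a and Blk) and none lower; 17 of the 19 log2 values were above 0 and their median was 0.93, beside 0.00 over all genes tested (1.18 without mouse10372). All 5 BLP libraries lay above all 5 ALP libraries for 6 of these 19 genes, against 0.752% of all tested genes.

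Vpreb3, a chaperone-like protein that binds nascent Ig chains in early B cells, was at 0.153, 0.131, 0, 0 and 1.27 CPM in ALPs and at 414, 177, 48.9, 75.5 and 118 CPM in BLPs. The ALP values rest on 13 counts in all, against 5529 in BLPs, a pooled ratio of 453 (95% exact interval 265 to 852, counting error only), and the fitted log2 fold change was 9.14 ± 0.79 (adjusted p = 0.00229). BLPs of mouse10357 had the highest level and those of mouse10372 the lowest, with no overlap with any ALP library. Cd79a, the Ig-alpha signalling chain, was at 1.22, 1.05, 0.297, 5.17 and 0.116 CPM in ALPs and at 498, 485, 49.1, 139 and 95.2 CPM in BLPs (log2 7.68 ± 0.78, adjusted p = 0.00569). The groups were far apart, and BLPs of mouse10357 and mouse10358 stood above the other 3. The call was lost without mouse10357 or mouse10381, at adjusted p of 0.0637 at most. Its partner Cd79b was already at 149 ± 50 CPM in ALPs and reached 327 ± 74.6 CPM in BLPs, without overlap (log2 1.25 ± 0.24, adjusted p = 0.139).

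Blk, a Src family kinase of early B cells, was at 7.34, 36.9, 32.1, 27 and 38.5 CPM in ALPs and at 126, 196, 93.7, 313 and 160 CPM in BLPs (log2 2.79 ± 0.39, adjusted p = 0.0355). Blnk, the adaptor that links the receptor to its downstream enzymes, did not pass (log2 1.37 ± 0.24, adjusted p = 0.106), although its BLP libraries, at 586 to 1009 CPM, all lay above its ALP libraries, at 255 to 451 CPM. The surrogate light chain genes were near the floor of detection in ALPs. Vpreb2 was at 0 to 4.74 CPM in ALPs and 27 to 69.9 CPM in BLPs (log2 4.86 ± 0.86, adjusted p = 0.108), and Vpreb1 at 0.116 to 2.68 CPM in ALPs and 2.5 to 143 CPM in BLPs (log2 3.78 ± 1.08, adjusted p = 0.685). As Vpreb1 and Vpreb2 are near copies of each other, the split of reads between these genes is uncertain.

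Igll1, the lambda-5 part of the surrogate light chain, did not pass the filter on low counts. It was at 0, 0, 0.892, 0 and 0.347 CPM in ALPs and at 561, 133, 2.22, 0.256 and 32.6 CPM in BLPs, so that BLPs of mouse10372 and mouse10380 were close to the ALP range while those of mouse10357 and mouse10358 were far above it. With all genes in the fit and no filter, Igll1 did not pass either (log2 8.28, adjusted p = 0.916). Ighm, the mu heavy chain constant gene, was at 2531 ± 718 CPM in ALPs and 3169 ± 962 CPM in BLPs (log2 0.41 ± 0.26, adjusted p = 1), and the kinases and enzymes Syk, Btk, Lyn and Plcg2 had log2 differences of 0.03 to 0.38.

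**Figure D2:**
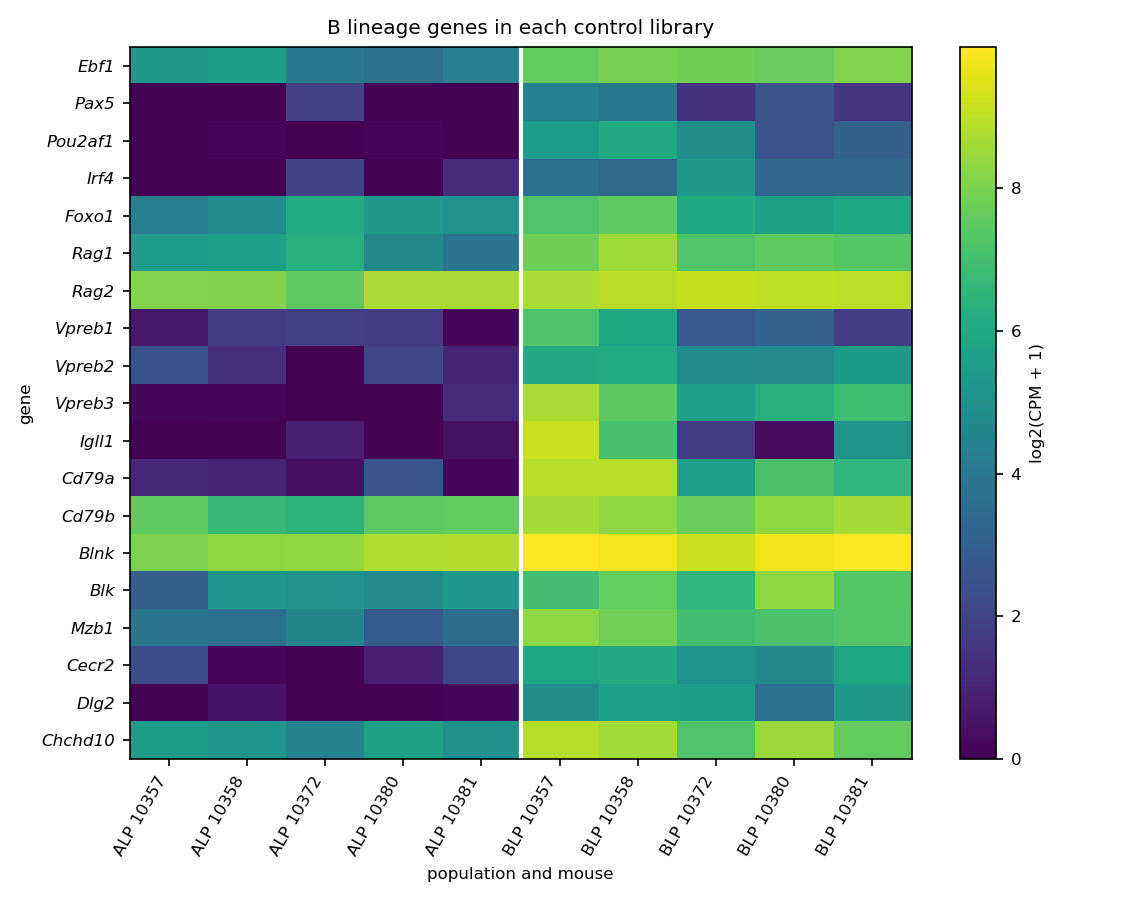
Heat map of log2(CPM + 1) for 19 B lineage genes (rows) in each control library (columns: 5 ALP libraries left of the white line and 5 BLP libraries right of it, by mouse). Vpreb3 and Dlg2 are near 0 in all ALP libraries and above it in all BLP libraries. Cd79a is low in ALPs, with 5.175 CPM in mouse10380 as its highest ALP value, and higher in all BLP libraries. Igll1 differs between the BLP libraries of the 5 mice, and Rag2, Blnk and Cd79b are already present in ALPs.

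Among transcription factors of the B lineage, 22 of 25 genes could be tested and 2 were higher, Ebf1 and Pou2af1; none was lower. The median log2 difference was 0.28, with 14 of 22 above 0 (0.47 without mouse10372, where Pou2af1 no longer passed). Ebf1, which specifies the B lineage, was at 39.6, 46.5, 15.5, 12.1 and 18.1 CPM in ALPs and at 193, 244, 224, 202 and 279 CPM in BLPs (log2 3.39 ± 0.39, adjusted p = 0.0124). The SD was 34.4 CPM around a mean of 228 CPM in BLPs and 15.6 CPM around 26.3 CPM in ALPs, so the ALP values differed more relative to their mean, with mouse10357 and mouse10358 above the other 3. The call was lost without mouse10380 or mouse10381 (adjusted p up to 0.154). Pou2af1, the B cell coactivator of Oct factors, had 2 counts over the 5 ALP libraries and was at 44.3, 64.5, 30.2, 4.86 and 7.24 CPM in BLPs. The pooled count ratio was 585 (95% exact interval 162 to 4838), and the fitted log2 fold change was 8.40 ± 1.17 (adjusted p = 0.0355). The call was kept only without mouse10380 among the 5 fits that left out a mouse, with adjusted p up to 0.487 elsewhere.

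Pax5, the commitment factor, had 9 ALP counts, all in mouse10372, and was at 19.7, 15.5, 1.78, 4.98 and 1.95 CPM in BLPs (log2 6.87 ± 2.18, adjusted p = 0.934). Irf4, which acts with Spib and Spi1 at light chain genes, was at 0 to 2.97 CPM in ALPs and 8.82 to 41.5 CPM in BLPs (log2 5.87 ± 1.5, adjusted p = 0.53), without overlap. Foxo1, an activator of the Rag genes, was at 37.8 ± 19.8 CPM in ALPs and 102 ± 60.6 CPM in BLPs (log2 1.43, adjusted p = 1). The E2A gene Tcf3 and its relatives Tcf4 and Tcf12 had log2 differences of -0.04, -0.00 and 0.23, and those of Ikzf1 and Bcl11a, needed for lymphoid priming, were 0.11 and 0.29.

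Of the recombination list, 17 of 18 genes could be tested and Rag1 alone passed; the median log2 difference was 0.12 (0.04 without mouse10372). Rag1 was at 44.2, 48.4, 76.4, 25.1 and 13.3 CPM in ALPs and at 217, 379, 153, 181 and 161 CPM in BLPs (log2 2.63 ± 0.37, adjusted p = 0.0359). All BLP libraries lay above all ALP libraries, and mouse10358 had the highest BLP value. The call was kept only without mouse10372 among the fits that left out a mouse, with adjusted p up to 0.366 elsewhere. Its partner Rag2, which lies 5753 bases away on the opposite strand, was at 276, 269, 184, 415 and 413 CPM in ALPs and at 422, 476, 536, 525 and 504 CPM in BLPs, again without overlap but by less (log2 0.80 ± 0.27, adjusted p = 1). Dntt, the enzyme that adds nontemplated bases at the joints, was abundant in both, at 7018 ± 1871 CPM in ALPs and 5256 ± 785 CPM in BLPs (log2 -0.30, adjusted p = 1). The end-joining factors Xrcc5, Xrcc4, Nhej1, Prkdc and Dclre1c had log2 differences of 0.12, -0.03, 0.06, -0.31 and -0.11. The 113 Igh V genes together were at 207, 161, 110, 74.4 and 121 CPM in ALPs and at 179, 247, 190, 166 and 147 CPM in BLPs, higher in 4 of 5 mice, and none of the 14 V genes that could be tested passed. Igk V genes summed to a mean of 4.76 CPM in ALPs and 6.88 CPM in BLPs, and Igkc to 2.8 and 1.97 CPM.

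The list of early B surface and other genes held 3 more of the higher genes (20 of 26 tested, median log2 1.20, or 0.77 without mouse10372, 18 of 20 above 0): Chchd10, Mzb1 and Sdc4. Chchd10, a mitochondrial protein of the intermembrane space, was at 46, 35.9, 20.8, 50.5 and 31.2 CPM in ALPs and at 468, 382, 150, 352 and 190 CPM in BLPs (log2 3.08 ± 0.26, adjusted p = 0.00229). In GENCODE M21 it lies at chr10:75933130-75937747, 5310 bases before Vpreb3 on the same strand, at chr10:75943057-75949657. The other tested genes within 50 kb of them had log2 differences of -0.13 for Mmp11, -0.19 for Smarcb1 and -0.36 for Derl3, each with an adjusted p of 1. The gap of 5310 bases is to the GENCODE span of Vpreb3. The upstream stretch printed for Vpreb3, chr10:75948050-75948299, precedes its RefSeq start and lies inside that span. Chchd10 and Vpreb3 were the only pair of called genes among the 29 tested neighbours within 50 kb of the 14 genes. Unlike Vpreb3, Chchd10 was present earlier, at a mean of 60.5 CPM in HSCs and 58.4 CPM in LMPPs.

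Mzb1, an endoplasmic reticulum protein of B cells that helps Ig assembly, was at 13.5, 11.5, 22.3, 6.17 and 11.2 CPM in ALPs and at 307, 234, 122, 136 and 157 CPM in BLPs (log2 4.01 ± 0.36, adjusted p = 0.00264). Every BLP library was above every ALP library, and the largest BLP value was that of mouse10357. Sdc4, a heparan sulfate proteoglycan, was at 160, 138, 131, 593 and 219 CPM in ALPs and at 507, 477, 577, 1354 and 1043 CPM in BLPs (log2 1.89 ± 0.27, adjusted p = 0.0359). The groups overlapped because mouse10380 was high in both, and the call needed the mouse block. Cecr2, a bromodomain protein, was at 0 to 3.82 CPM in ALPs and 26.7 to 64.4 CPM in BLPs (log2 5.56 ± 0.96, adjusted p = 0.102), and Myl4, a myosin light chain, at 34.8 to 86.5 and 131 to 319 CPM (log2 2.20 ± 0.34, adjusted p = 0.0667). Neither passed, and neither overlapped. Cd93, Cd24a and Arpp21, long used to mark early B cells, had log2 differences of 0.53, 0.41 and 0.44 and were already at 1214, 288 and 170 CPM in ALPs.

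Of the 14 genes, 4 stood outside every list. Dlg2, a scaffold protein best known from synapses, had 4 ALP counts and was at 29.5, 49, 46.8, 11.6 and 40.1 CPM in BLPs (log2 8.48 ± 0.98, adjusted p = 0.0124, pooled count ratio 308, 95% exact interval 120 to 1131). It was present earlier, at 2.595, 8.12, 18.95, 8.387 and 16.97 CPM in HSCs and at 0.1246 to 3.585 CPM in LMPPs. Ifi209, of the interferon-inducible p200 family, was at 52.6, 66, 43.1, 41 and 48.3 CPM in ALPs and at 150, 228, 189, 237 and 166 CPM in BLPs (log2 2.03 ± 0.26, adjusted p = 0.0257). In the interferon response list, all 25 genes could be tested and none passed, where 0.128% of all genes did. Of the 25, 16 were above 0 and 4 had an unadjusted p under 0.05 (4.09% of all genes), the highest log2 difference was 2.45, and the median was 0.32 (0.13 without mouse10372). Atp1b3, a beta subunit of the sodium-potassium pump, was at 706, 764, 446, 579 and 646 CPM in ALPs and at 2029, 2059, 1475, 1659 and 1540 CPM in BLPs (log2 1.57 ± 0.21, adjusted p = 0.0338); it is named because it was called, outside the naming rule. Wfdc17, a small secreted protein with a whey acidic protein domain known from myeloid cells, was the 1 gene lower in BLPs, at 176, 149, 307, 210 and 256 CPM in ALPs and 50.8, 39.1, 79.3, 32.7 and 28.7 CPM in BLPs (log2 -2.22 ± 0.31, adjusted p = 0.0355). The groups did not overlap, yet the call was lost in each fit that left out a mouse, with adjusted p up to 0.211. In LMPPs it was at 739.6, 673, 3609, 625.8 and 1660 CPM, the mean of 1461 CPM resting largely on mouse10372, and in HSCs its mean was 22.1 CPM.

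Wfdc17 was the only gene lower in BLPs at the threshold, and several genes that did not pass were lower in all 5 mice. Cd34, a sialomucin of stem and progenitor cells that stands in the homing and adhesion list, was at 959, 1191, 1261, 691 and 1189 CPM in ALPs and at 254, 307, 365, 466 and 311 CPM in BLPs, without overlap (log2 -1.56 ± 0.25, adjusted p = 0.0788, and 0.0091 without the mouse block). In the stem and multipotent progenitor list, 19 of 29 genes could be tested and none passed; 15 of 19 log2 values were below 0 and the median was -0.48 (-0.51 without mouse10372). Lmo2, an adaptor of stem cell transcription complexes, was at 155, 92.2, 457, 98.2 and 102 CPM in ALPs and at 57 to 73.6 CPM in BLPs (log2 -1.10 ± 0.34, adjusted p = 0.916), the high value being that of mouse10372. Mycn, a Myc relative active in stem cells, was at 41.8 and 14.7 CPM on average (log2 -1.57 ± 0.55, adjusted p = 1), and Meis1 and Angpt1 had log2 differences of 0.25 and 0.26.

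Ddx4, an RNA helicase best known from germ cells and chosen after its values were seen, was at 98.6, 69.3, 111, 68.6 and 91.4 CPM in ALPs and at 0, 0.239, 19.6, 0.256 and 0 CPM in BLPs (log2 -7.39 ± 1.29, adjusted p = 0.102). No ALP and BLP library overlapped, and the BLPs of mouse10372 alone had more than 1 CPM. Without mouse10372 it passed, at log2 -8.94 and an adjusted p of 0.0116. It was at a mean of 104 CPM in LMPPs and 1.38 CPM in HSCs. Tbxas1, thromboxane synthase, also chosen after its values were seen, was at 8.03 to 38.9 CPM in ALPs and 0 to 3.34 CPM in BLPs (log2 -5.05 ± 1.18, adjusted p = 0.427).

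**Figure D3:**
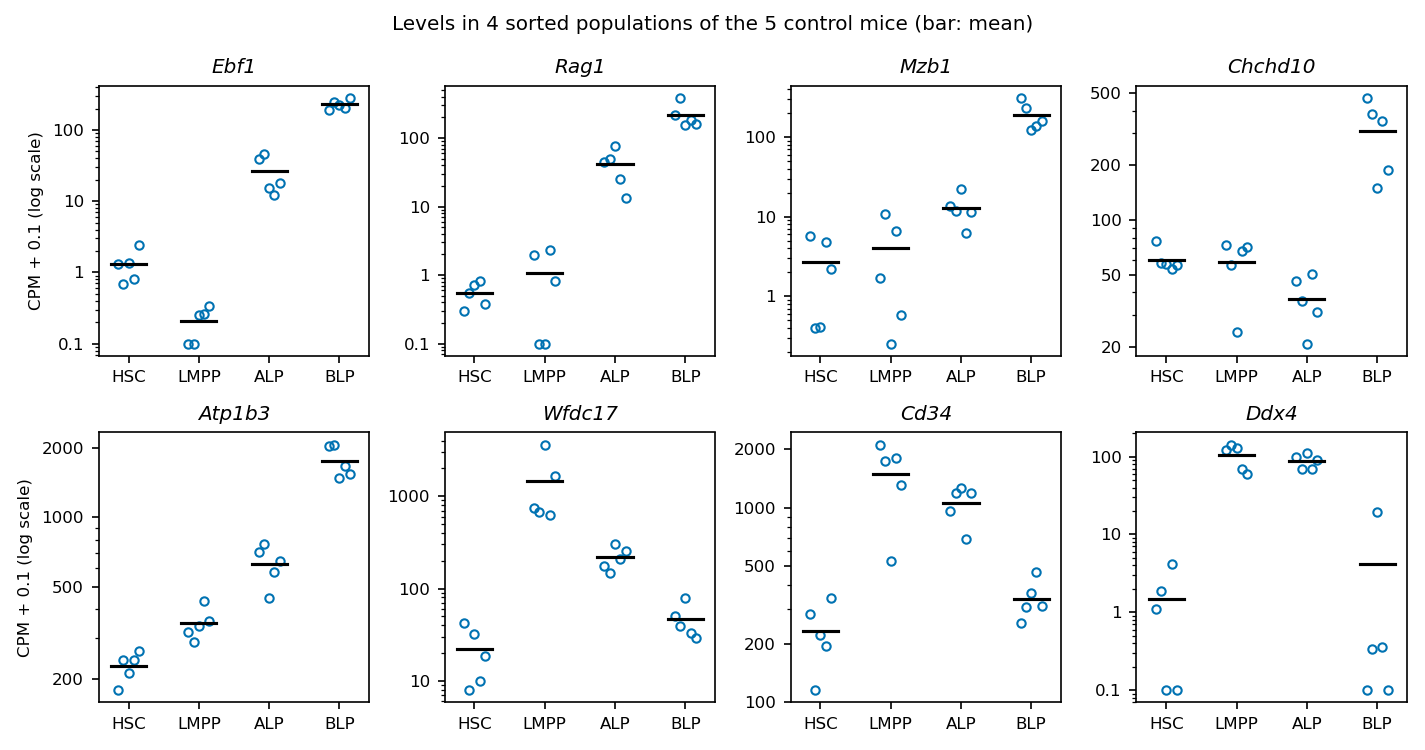
Levels of 8 genes in the 4 sorted populations of the 5 control mice (points: libraries; bars: means; y axis: CPM plus 0.1, log scale, scaled per gene). The mean of Ebf1 goes from 1.22 CPM (HSC) and 0.11 CPM (LMPP) to 26.3 CPM (ALP) and 228 CPM (BLP), Chchd10 has its lowest mean in ALPs, and Wfdc17, Cd34 and Ddx4 have their highest mean in LMPPs.

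In the T lineage and Notch list, 16 of 28 genes could be tested, none passed and the median was 0.04 (-0.09 without mouse10372). Tcf7, the factor that starts the T program, was below the filter on low counts and was at 48.9, 40.6, 16.4, 0 and 9.15 CPM in ALPs and at 0, 0, 0, 0 and 0.557 CPM in BLPs. The ALP libraries held 764 counts and the BLP libraries 2, a pooled ratio of 358 (95% exact interval 98.9 to 2964, counting error only). With no filter it passed (log2 -7.93, adjusted p = 0.00984), and the ALP library of mouse10380 was at 0 as well. Gata3, needed in early T and innate lymphoid cells, was at 11.7 to 33.9 CPM in ALPs and 0.148 to 14.8 CPM in BLPs (log2 -3.42 ± 1.43, adjusted p = 1). Cd7, a surface protein of T, NK and dendritic progenitors, went the other way, at 11.3 to 36.2 CPM in ALPs and 28.5 to 230 CPM in BLPs (log2 2.25 ± 0.44, adjusted p = 0.185), higher in 5 of 5 mice. Notch1, Lck and Cd27 had log2 differences of -0.88, 0.46 and -0.34.

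In the lists of markers of other cell types no member passed, where 0.128% of all genes did, so that lists of this length would hold few calls at that share. DESeq2 called 1 higher and 1 lower member of the neutrophil and monocyte list, 1 higher member each of the dendritic cell and mature B lists, and 1 lower member each of the macrophage and stromal lists. In the neutrophil and monocyte list (12 of 24 tested, median -0.36, or -0.74 without mouse10372) the summed level was 618 to 1426 CPM in ALPs and 369 to 716 CPM in BLPs. Its member Mpo, myeloperoxidase, was at 426, 884, 319, 186 and 635 CPM in ALPs and 124, 240, 146, 176 and 77.4 CPM in BLPs (log2 -1.50 ± 0.38, adjusted p = 0.522), lower in 5 of 5 mice, while Elane, Cebpe, Ms4a3, Ltf and Cd14 had 0 counts in all 10 libraries. The part of myeloid RNA in the result for Wfdc17 was not tested. Ly6c2 of this list was at 0 to 1.83 CPM in ALPs and 11.2 to 44.3 CPM in BLPs, without overlap (log2 5.31 ± 0.95, adjusted p = 0.111, and 0.0318 without the mouse block). In the cytokine receptor list, 26 of 27 genes could be tested, none passed and the median was -0.20 (-0.10 without mouse10372). Csf3r of that list, the receptor for granulocyte colony-stimulating factor, was at 10.6, 24.2, 44.9, 2.09 and 29.7 CPM in ALPs and at 0, 0.119, 8.89, 0.128 and 0.278 CPM in BLPs (log2 -5.45 ± 1.31, adjusted p = 0.482). It was lower in 5 of 5 mice, and the groups overlapped.

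The dendritic cell list (15 of 20 tested, median 0.24) summed to 2161 to 3741 CPM in ALPs and 1874 to 3909 CPM in BLPs. Siglech, a receptor of plasmacytoid dendritic cells, was at 54.1, 54.2, 45.8, 80.9 and 112 CPM in ALPs and 484, 301, 139, 164 and 249 CPM in BLPs, without overlap (log2 1.96 ± 0.36, adjusted p = 0.135, and 0.0383 without the mouse block). Irf8, Bst2 and Runx2 of that list had log2 differences of 0.24, 0.15 and 0.16, and the classical dendritic cell gene Batf3 was at 0 in all 10 libraries. The mature B and plasma cell list (4 of 17 tested, median 0.30) summed to 310 to 522 CPM in ALPs and 410 to 608 CPM in BLPs; Ms4a1 (CD20), Fcer2a and Ighg1 had 0 counts in all 10. The macrophage list (3 of 12 tested) summed to 53.1 to 119 CPM in ALPs and 41.5 to 78.6 CPM in BLPs with Siglec1 at 0, the NK and innate lymphoid list (6 of 17 tested) to 128 to 432 and 111 to 179 CPM with Eomes, Tbx21 and Gzmb at 0, and the megakaryocyte list (2 of 12 tested) to 1.83 to 28.3 and 0.297 to 25.6 CPM with Gp1bb, Ppbp and Clec1b at 0. The erythroid list (2 of 15 tested) summed to 501 to 737 and 498 to 1279 CPM, most of it Tfrc, with Gata1 and 5 others at 0. The stromal and endothelial list (2 of 12 tested) summed to 103 to 285 and 69.9 to 238 CPM, with Col1a1, Col3a1 and Lepr at 0.

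**Figure D4:**
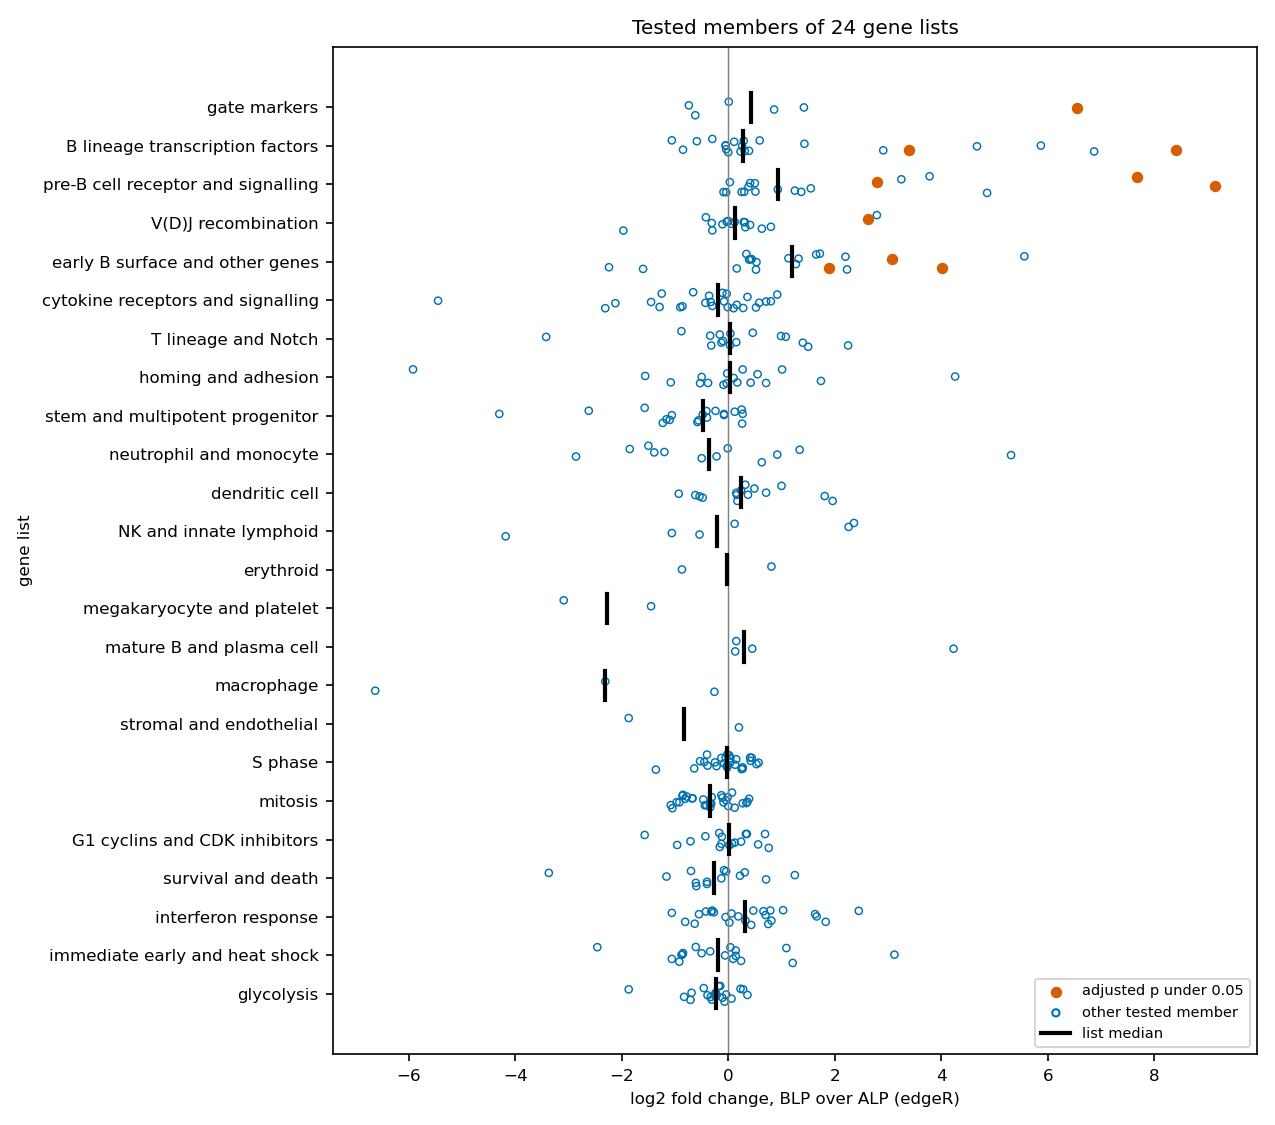
Log2 fold change of each tested member of 24 gene lists (x axis: BLP over ALP; filled points: adjusted p under 0.05; bars: list medians; vertical position within a row is only spread). All filled points lie in the gate list and 4 B lineage lists, and the medians of the lists with at least 10 tested members run from -0.48 to 1.20. The lists were chosen with earlier results of these data known.

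No gene of the cell cycle, survival or metabolism lists passed, where 0.128% of all genes did. The medians were -0.02 over 28 S phase genes, -0.34 over 29 mitosis genes and 0.02 over the 17 of 20 G1 genes that could be tested. Without mouse10372 they were -0.19, -0.56 and 0.12, with 7 of 28 S phase genes and 4 of 29 mitosis genes above 0. Cdk6 and Myc, among the most counted of these, had log2 differences of 0.33 and -0.12, and Mcm6 and Ccnb2 of -0.08 and -0.81. The survival list (14 of 19 tested) had a median of -0.26 (-0.05 without mouse10372), with Bcl2 at 310 and 184 CPM on average (log2 -0.61 ± 0.25, adjusted p = 1). The glycolysis list (21 of 22 tested) had a median of -0.23 (-0.13 without mouse10372) and the immediate early and heat shock list (18 of 23 tested) of -0.20, and no member of either passed. Among homing and adhesion genes, 18 of 21 could be tested and none passed, with a median of 0.04 (0.11 without mouse10372). S1pr1, the sphingosine phosphate receptor used to leave the marrow, was at 0.11 to 5.96 CPM in ALPs and 7.19 to 37.6 CPM in BLPs (log2 4.26 ± 1.3, adjusted p = 0.876).

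The same step in the Mbd3_Del/Del mice shares no library with the control step. There 41 of 10842 tested genes passed, 37 higher (0.341%) and 4 lower (0.0369%). Of the 14 control genes, all 14 had the same sign in those mice and 10 passed there too, which is 71.4% of the control genes and 24.4% of the 41. Ly6d is counted in the 14 and in the 10, although the sort on Ly6D set its direction in advance. The 4 that did not pass in the Mbd3_Del/Del mice were Ifi209, Wfdc17, Pou2af1 and Sdc4, with adjusted p of 0.281, 0.545, 0.232 and 0.172. Of the 40 genes called there that were tested in controls, 39 had the same sign in controls, and 32 had an unadjusted p under 0.05 in edgeR's control fit. Lrrc23 had the opposite sign, at log2 -7.95 in the Mbd3_Del/Del mice and 3.50 in controls. Some called genes changed little in controls, such as Lgals1 (2.53 against 0.71), Msmo1 (1.54 against 0.24) and Irf8 (1.25 against 0.24). Cd34, Blnk, Siglech, Cd7, Ly6c2 and Gcnt2, which did not pass in controls, passed in the Mbd3_Del/Del mice with log2 fold changes of -2.25, 1.72, 3.73, 3.53, 4.33 and -2.35, against -1.56, 1.37, 1.96, 2.25, 5.31 and -1.61 in controls.

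The test of the difference itself called none of 12123 genes in edgeR (smallest adjusted p = 0.451) and 29 genes in DESeq2. In edgeR 412 genes had an unadjusted p under 0.05, where evenly spread p-values would give 606. For the 14 genes the fitted change was larger in controls in each case, with a median size of 3.23 in controls and 2.14 in Mbd3_Del/Del mice on the log2 scale. As the genes were chosen on the control step, that order is no test, and 5 of the 14 had an unadjusted p under 0.05 for the difference, with adjusted p of 1 for all. The count was 0 to 1 gene when a mouse of either genotype was left out.

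**Figure D5:**
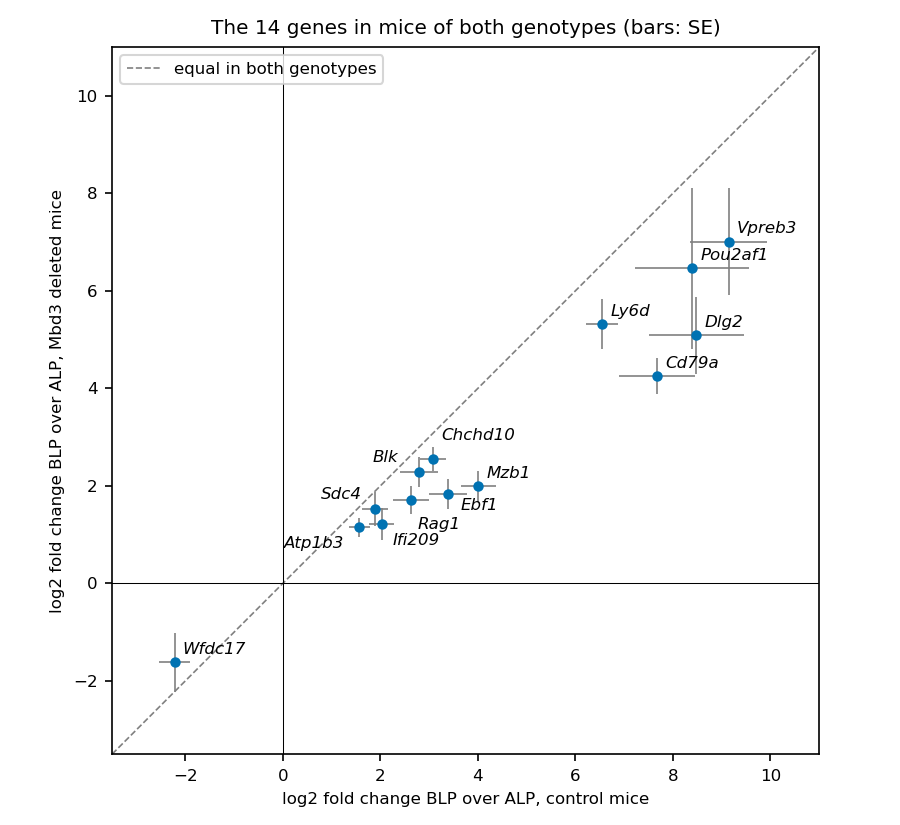
Log2 fold change of BLP over ALP in control mice (x axis) and in Mbd3_Del/Del mice (y axis) for the 14 genes called in controls, with bars of 1 SE from edgeR and a dashed line of equal change. All 14 points share their sign, and all lie on the side of the larger control value, the contrast on which they were chosen.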

How the data were processed

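RNA-seq counts of the 10 control ALP and BLP libraries were compared, and other libraries of the series served for levels and the genotype comparison. The authors deposited raw read counts per gene, and per the submitters' processing notes STAR 2.5.2b, HTSeq 0.6.1p1 and the GRCm38 build were used. Annotation release and strand setting: not given in the sources used here. Of the 128910 features in the deposited counts, 49585 were genes; the remaining repRegion features were left out of library sizes and tests. Coordinates are from GENCODE M21, which holds 49326 of the gene identifiers, and CPM is the count per 1000000 gene counts of the library.

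Genes were kept with a minimum count of 10 and a total of 15 (edgeR's filterByExpr), scaled by TMM and tested with edgeR 4.0.16 (quasi-likelihood F test, robust) in R 4.3.3, with the mouse as a block and Benjamini-Hochberg adjustment; adjusted p under 0.05 was called. The block rests on the ALP and BLP libraries coming from the same animal. Deviations from the group means correlated at -0.0238 to 0.17 within a mouse and at -0.21 to 0.201 between mice. As these ranges overlap, the correlations over 5 mice do not show a pairing and cannot exclude one. Intervals of count ratios are exact at 95% and cover counting error only, since reads without molecular identifiers are not independent molecules. Where labels do not say more, p-values of the control fit with the mouse block set the mean difference between BLPs and ALPs against its variation between these 5 mice. The variance of each gene was estimated with information from all genes tested. DESeq2 1.42.0, limma 3.58.1 (voom) and other settings were alternatives, and the fits were tested on simulated data.

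The text names, among called genes with a mean of at least 5 CPM and 1 direction in all 5 mice, the 12 largest changes and 6 lowest p in each direction, the gate genes, Mbd3, called list members and the 4 uncalled members of highest CPM in each list. Other genes named with values, such as Ddx4, Tbxas1, Gcnt2, Atp1b3, Lynx1, Igll1, Tcf7 and further list members, were chosen after their values were seen. The 24 lists, 484 genes of which 355 could be tested, and the comparison itself were chosen with earlier results of these data known.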

Additional observations from a re-analysis of the deposited data

Results flagged for a closer look

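In 48 groups of 5 libraries, 9 held a library far from the other 4 by Dixon's criterion (critical value 0.71), where chance gives about 1 in 20. In ALPs of mouse10380, Sdc4 was high at 593.3 CPM, Cd79a was high at 5.175 CPM and Kit was low at 16.18 CPM. In ALPs of mouse10381, Vpreb3 was high at 1.274 CPM. In BLPs of mouse10372, Il7r was high at 1555 CPM, Ptprc was high at 1090 CPM and the share of ribosomal protein genes was low at 1.336%. In BLPs of mouse10358, Rag1 was high at 379 CPM, and in BLPs of mouse10381 the 10 most counted genes held a high share of 10.29%. The features called repRegion, which no comparison used, held up to 1.956% of all counts in a control ALP or BLP library (lowest 0.2586%), beside 0.2053% to 2.279% over the series.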

How the results depend on the processing

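The count of 14 genes for the control step became 29 with no replicate block, 159 in DESeq2, 28 in limma voom, 50 with no expression filter, 41 with edgeR's newer estimator and 23 in a joint fit of 20 control libraries, of which 9 were among the 14. Leaving out each mouse gave 4 to 15 genes, leaving out mouse10372 and mouse10381 together gave 4, and 28 were called with no replicate block and without the ALP library of mouse10372, a setting chosen after seeing the data. No TMM scaling gave 12, without Blk and Rag1, and DESeq2 size factors gave the same 14. A minimum count of 50 also gave 14, of which 13 were among the original 14, Pou2af1 being lost. The joint fit lost Mzb1, Ifi209, Blk, Sdc4 and Rag1 of the 14. The Mbd3_Del/Del count of 41 became 69 with no replicate block, 385 in DESeq2, 24 with no TMM scaling, 95 with no expression filter and 5 to 47 without 1 mouse. The difference between genotypes, 0 genes, became 29 in DESeq2 and 6 with no expression filter, and it was 0 to 1 without 1 mouse (1 without the control mouse10380). The causes were not tested. Over 998 values for 63 named genes, 805 stayed on the same side of the threshold, 138 newly passed it and 55 no longer did. No called gene changed sign, and 14 values of uncalled genes did. Counts of 3 or fewer reads in a group, as for Pou2af1 in ALPs, limit fold changes to their counting intervals.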

Other observations

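Some B lineage genes, picked here after their values were seen, differed among the BLP libraries. Mouse10357 and mouse10358 had the highest levels of Vpreb1 (143 and 57 CPM), Igll1 (561 and 133 CPM), Cd79a (498 and 485 CPM) and Pax5 (19.7 and 15.5 CPM) among the 5, whereas the other 3 were at 2.5 to 7.92 CPM for Vpreb1 and 1.78 to 4.98 CPM for Pax5. Blk did not follow that order, with BLPs of mouse10380 highest at 313 CPM and those of mouse10357 second lowest at 126 CPM. Ebf1 did not either, since BLPs of mouse10357 and mouse10358 were at 193 and 244 CPM and that of mouse10381 was highest at 279 CPM. This order was seen in the data and was not tested.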
